A study of Oryza sativa with 46 samples.

Results

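The class I small heat shock proteins were followed through 7 rice loci, of which Os01g0136000, Os01g0136100 and Os01g0136200 lie on chromosome 1 and Os03g0266300, Os03g0266900, Os03g0267000 and Os03g0267200 on chromosome 3 by their locus names. Every spot other than a control whose probe name began with one of these loci was taken, which gave 18 probes of 42477 on the array and 7 loci of 29923. The rule itself uses only probe names. Os03g0266300 was represented by 9 probes and Os03g0266900 by 4, and each of the other loci by 1. The study annotated Os03g0266900 as the low molecular mass heat shock protein Oshsp17.3, Os01g0136200 as a 17.7 kDa heat shock protein and Os03g0266300 as a protein with an Hsp20 domain.

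Small heat shock proteins are chaperones that work without ATP. They bind proteins that begin to unfold and hold them in a soluble form until HSP70 and HSP100, which use ATP, refold or disaggregate them. Class I members act in the cytosol and nucleus. Their genes are driven mainly by heat shock factors, are usually at a low level in unstressed leaves and roots, and are known in plants to answer heat and also osmotic, oxidative and salt stress.

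Whole seedlings of 8 genotypes were compared at 120 mM and 0 mM NaCl on single-colour Agilent rice arrays. The genotypes were the salt-tolerant indica landrace Pokkali, the moderately tolerant indica lines PSBRc50 and IR58, the susceptible indica variety BRRI dhan 29, the moderately tolerant japonica Banikat, the susceptible japonica Nipponbare, and the susceptible wild species O. latifolia and O. rufipogon. There were 23 arrays at 120 mM and 23 at 0 mM, in 16 groups of 2 or 3, each array made from 1 seedling. All seedlings, unsalted ones included, came from seeds held at 48 °C for 5 days, grew in hydroponic culture at 28 °C by day and 20 °C by night, and were 16 days old at harvest. Salt was started at reduced strength on day 13 and brought to full strength 24 hours later, and the stress lasted 48 hours. RNA came from root and shoot together, so that fewer cells of a type and less RNA per cell cannot be told apart. Values below are log2 signals of a probe, quantile-normalized between arrays, and a salt effect is the mean log2 signal at 120 mM minus that at 0 mM.

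Some arrays did not resemble the genotype on their label. In 8 of 46 arrays the profile over all probes correlated best with another genotype (r of 0.42 to 0.84, against −0.089 to 0.097 with the labelled one), while the other 38 correlated best with their own (0.23 to 0.93). Of these, 4 carried the 120 mM label, namely replicate 3 of PSBRc50, of Banikat and of Nipponbare and replicate 2 of O. latifolia, and 4 the 0 mM label, namely replicate 3 of Banikat and of Nipponbare and replicate 2 of IR58 and of BRRI dhan 29. Counts are therefore given with all 46 arrays and with the 38 that matched their label, which were chosen by the whole profile and not by these probes. Effects of single probes and loci within a genotype are those of the 38 arrays unless all 46 are named, and with all 46 none of the 18 probes passed within any genotype. The scanner software marked 20914 to 36693 probes per array as well above background and 0 spots as saturated. The matching O. latifolia arrays had the fewest such probes, at most 23526, against 26898 or more on every other array. On them a member probe read up to 7.45 at 0 mM without being well above background, so O. latifolia levels compare less well with those of other genotypes.

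With all 46 arrays, the class I probes tended to be higher under salt, but few passed the test. The mean salt effect over the 8 genotypes was above 0 for 18 of 18 probes, with a median of 1.32, against −0.011 over all probes on the array. By limma with Benjamini-Hochberg adjustment over all probes, 1 of 18 passed, AK119243 of Os03g0266900 (1.70, SE 0.43, adjusted p = 0.0321), where 1.94% of all probes passed in either direction and 1.23% were called higher. At an unadjusted p under 0.05 there were 13 of 18, and 7689 of all probes. With the 38 matching arrays, 16 of 18 were above 0, the median was 0.88, against −0.0049 over all probes, and 0 of 18 passed, with 2.39% of all probes called and 12 members and 6161 probes at an unadjusted p under 0.05. With single arrays left out of the 46, no member passed without replicate 2 of PSBRc50 or O. rufipogon or replicate 1 of BRRI dhan 29 at 120 mM, either IR58 array or O. rufipogon replicate 2 at 0 mM, replicate 3 of Nipponbare at either level, or replicate 3 of Banikat at 0 mM. The count was 11 without Banikat at 0 mM replicate 2, 10 without PSBRc50 at 120 mM replicate 3, and 2 to 5 without any 1 of the other Banikat, Nipponbare and wild-species arrays that moved it.

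The mean over genotypes joined effects of opposite sign. With the 38 matching arrays, the median salt effect of the 18 probes was 2.04 in Pokkali, 3.25 in PSBRc50, 3.15 in IR58, 2.98 in BRRI dhan 29, 1.18 in O. latifolia and 2.48 in O. rufipogon, but −3.65 in Banikat and −4.67 in Nipponbare. In the same 2 cultivars 17 of 18 probes were lower on the arrays labelled 120 mM, a pattern that 35.9% of all probes showed. In addition, 14 of 18 were higher in each of the other 6 genotypes, against 9.95% of all probes. Among these 14, AK119243, AK119717 and M80186 had effects of 0.84, 0.032 and 0.32 in O. latifolia, with no matching array there well above background. The O. latifolia median also includes such dim probes. X75616, also among the 14, had an effect of 0.14 (SE 0.87) in O. rufipogon. In BRRI dhan 29 its matching arrays at 0 mM were not well above background. With all 46 arrays the medians were 2.04 in Pokkali, 1.76 in PSBRc50, 2.92 in IR58, 3.56 in BRRI dhan 29, 1.90 in O. latifolia, 2.48 in O. rufipogon, −1.80 in Banikat and −2.66 in Nipponbare, and the counts were 17 (35.8% of all probes) and 15 (8.03%). Whether the salt labels of the Banikat and Nipponbare arrays are correct was not tested.

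**Figure D1:**
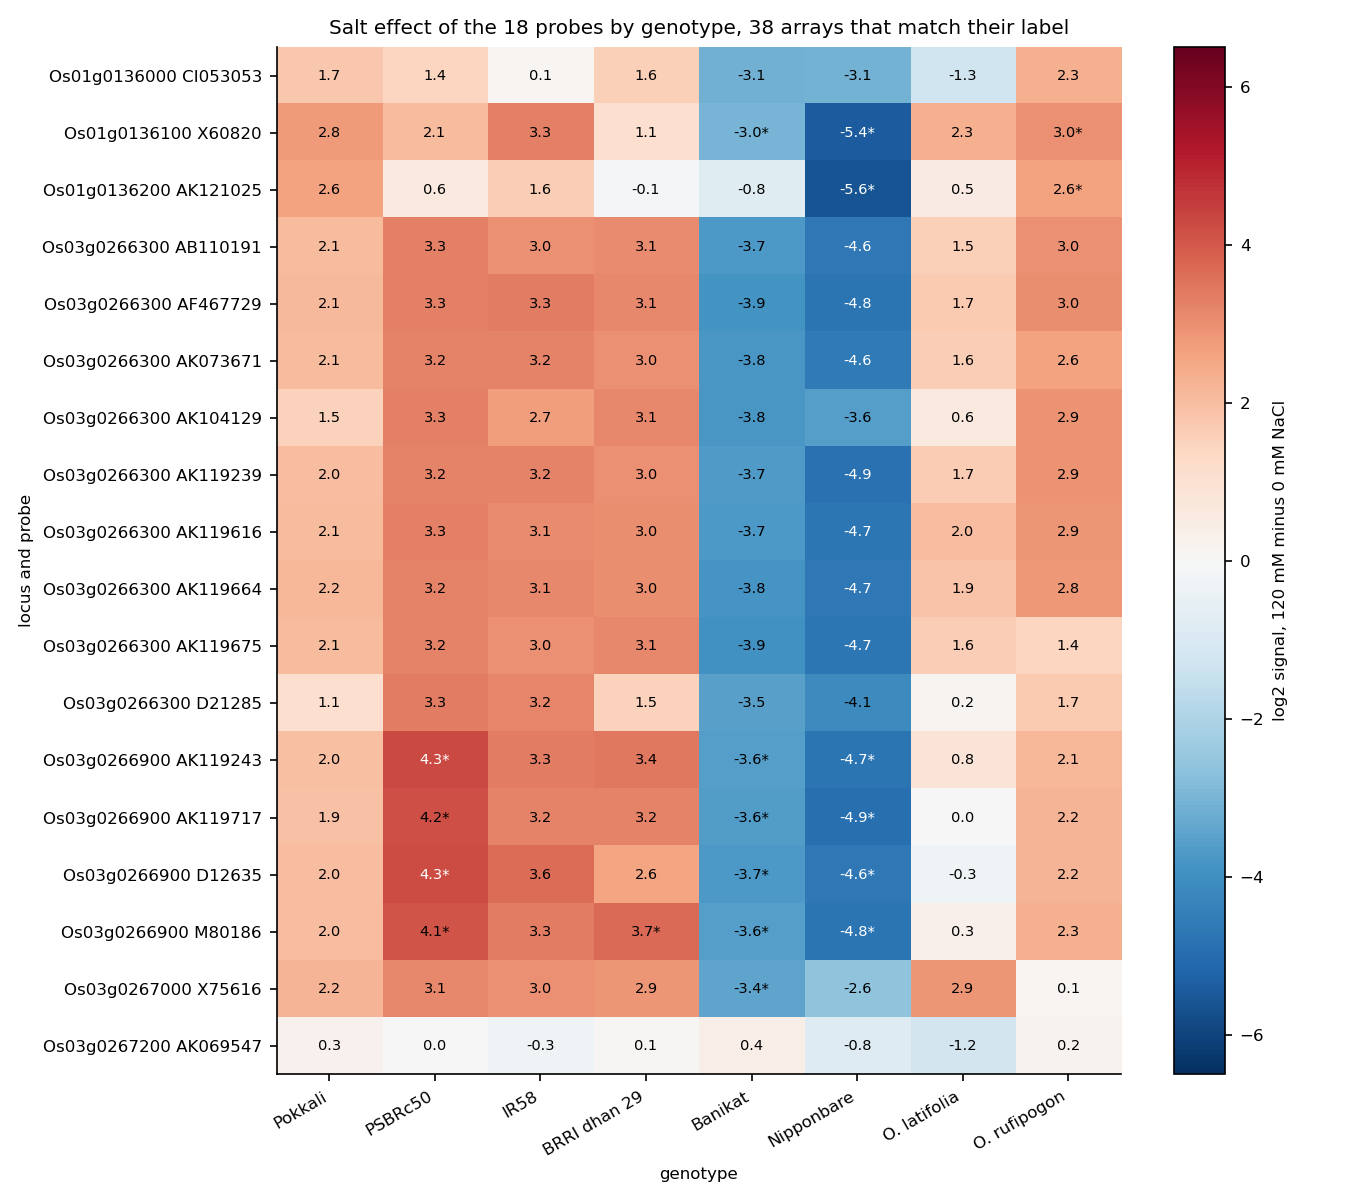
Heat map of the salt effect (log2 signal at 120 mM minus 0 mM NaCl) of the 18 probes, in rows, in the 8 genotypes, in columns, as fitted over the 38 arrays that matched their label, signals not well above background included; red is higher at 120 mM, blue is lower, and * marks an adjusted p of at most 0.05. The Banikat and Nipponbare columns are blue in all rows but that of Os03g0267200 in Banikat, and the Pokkali, PSBRc50 and O. rufipogon columns hold no value below 0.

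Os03g0266300, the Hsp20-domain locus, was well above background on all 46 arrays at its representative probe AB110191. In Pokkali this probe read 14.23, 14.58 and 12.65 at 120 mM, against 11.91, 11.02 and 12.31 at 0 mM. In PSBRc50 it read 14.68 and 16.03 at 120 mM, against 11.98, 11.37 and 12.87 at 0 mM. In IR58 it read 14.00, 15.56 and 14.17 at 120 mM, against 11.59 on the only matching array at 0 mM. In these indica genotypes every salt array lay above every array without salt. BRRI dhan 29 read 15.47 and 15.14 at 120 mM, against 12.20 and 12.25 at 0 mM. O. latifolia read 12.65 and 13.52 at 120 mM, against 11.49, 11.21 and 11.98 at 0 mM. O. rufipogon read 11.68, 15.94 and 14.14 at 120 mM, against 10.25, 10.51 and 12.13 at 0 mM. Only the groups of O. rufipogon overlapped among these, through its lowest salt array. On arrays labelled Banikat the order was turned round, with 10.92 and 10.42 at 120 mM, against 11.68 and 17.08 at 0 mM. On arrays labelled Nipponbare it read 11.58 and 9.62 at 120 mM, against 15.30 and 15.18 at 0 mM. Among the matching arrays both cultivars were thus lower on every array labelled 120 mM, and the 2 Banikat arrays at 0 mM lay far from each other. The 8 arrays that stood apart read 11.09 in PSBRc50, 12.77 in Banikat, 12.40 in Nipponbare and 15.18 in O. latifolia at 120 mM, and 11.72 in IR58, 10.46 in BRRI dhan 29, 11.77 in Banikat and 11.75 in Nipponbare at 0 mM. With these included, the groups of Banikat and of Nipponbare overlapped.

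For AB110191 the salt effect over the 38 arrays ranged between −4.64 (SE 1.20) in Nipponbare and 3.28 (SE 1.10) in PSBRc50. Within genotypes no adjusted p passed, the lowest being 0.0574 in Banikat (−3.71, SE 1.20), 0.0590 in Nipponbare and 0.0890 in PSBRc50. The difference of the salt effect between genotypes did pass (limma F test, adjusted p = 0.00189), whereas with all 46 arrays it did not. With all 46, the effect was −2.14 in Banikat, −2.88 in Nipponbare and 1.86 in PSBRc50 (SE 1.20 each). At 120 mM the highest group means were those of PSBRc50 (15.36 ± 0.96), BRRI dhan 29 (15.31 ± 0.23) and IR58 (14.58 ± 0.86), which did not differ beyond their spread, and the lowest were Banikat (10.67 ± 0.35) and Nipponbare (10.60 ± 1.38; SD, n = 2 or 3). At 0 mM these cultivars stood at the other end, Nipponbare at 15.24 ± 0.09 and Banikat at 14.38 ± 3.81, with the 6 genotypes other than Banikat and Nipponbare between 12.22 ± 0.04 in BRRI dhan 29 and 10.96 ± 1.02 in O. rufipogon, neighbours within their spread.

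The 9 probes of Os03g0266300 share a target and are not independent. Probe design labels placed 8 of them over coding sequence and 3′ UTR and 1, D21285, over 5′ UTR and coding sequence. After each probe was centred on its own mean over arrays, 7 of the 8 lay within a median range of 0.36 of each other on an array, and within 1 on 42 of 46 arrays. The widest range, 5.01, came from a single low reading of AK119675 on O. rufipogon at 120 mM replicate 1, and the next was 1.32. AK104129 and D21285 tracked AB110191 less closely (r = 0.89 and 0.75 over 46 arrays, as a description). Relative to AB110191, the centred signal of D21285 lay between −3.18 and 2.51 at 120 mM (median −0.16) and between −1.74 and 3.36 at 0 mM (median 0.32). It was 1.33 above AB110191 on the matching O. latifolia arrays at 120 mM and 2.67 above at 0 mM. AK104129 was 1.15 and 2.04 above at the same levels of salt. In O. latifolia at 0 mM AK104129 had a mean signal of 7.63 and was well above background on 2 of 3 arrays, so it was read near the background there. D21285 had the lowest mean salt effect of the 9, 0.53 (SE 0.49) with all arrays, against 1.06 to 1.39 for the other 8. Class I genes of a cluster are close copies of each other, and cross-hybridization between them was not tested, so readings of single loci are uncertain.

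**Figure D2:**
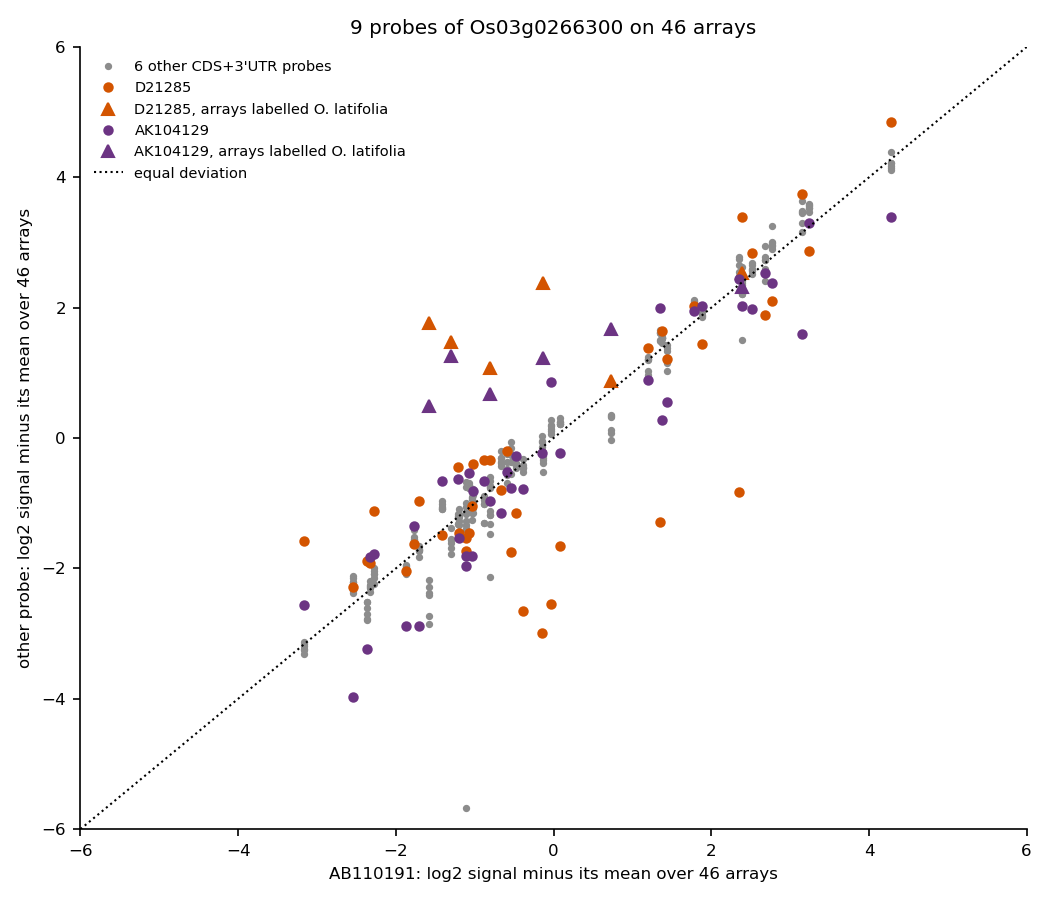
Log2 signal of the other 8 probes of Os03g0266300 (y axis) against AB110191 (x axis), each minus its own mean over the 46 arrays, with 1 point per probe and array; triangles are arrays labelled O. latifolia and the dotted line is equal deviation. The other probes over coding sequence and 3′ UTR follow the line but for 1 reading of AK119675, and D21285 and AK104129 lie above it on most O. latifolia arrays.

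Os03g0266900, annotated as Oshsp17.3, gave the most calls when all probes were counted, but its 4 probes share a target and are not independent. By representative probe it had calls in PSBRc50, Banikat and Nipponbare, as many genotypes as Os01g0136100. The 4 probes of Os03g0266900 cleared the background at 120 mM on 21 of 23 arrays and at 0 mM on 20 of 23. The others were all O. latifolia. The representative probe D12635 read 10.06, 10.58 and 9.05 at 120 mM in Pokkali, against 7.38, 7.95 and 8.31 at 0 mM. In PSBRc50 it read 9.27 and 11.29 at 120 mM, against 6.31, 5.95 and 5.82 at 0 mM. In IR58 it read 10.15, 10.76 and 10.59 at 120 mM, against 6.86 at 0 mM. The salt arrays of all 3 stood clear of those without salt. In BRRI dhan 29 D12635 read 10.16 and 9.30 at 120 mM, against 6.42 and 7.87 at 0 mM. In O. rufipogon it read 7.40, 11.22 and 10.34 at 120 mM, against 6.98, 6.86 and 8.47 at 0 mM, so that these groups overlapped. Arrays labelled Banikat gave 7.22 and 6.90 at 120 mM, against 10.17 and 11.36 at 0 mM. Arrays labelled Nipponbare gave 7.78 and 5.64 at 120 mM, against 11.23 and 11.48 at 0 mM. On the matching arrays of both japonica cultivars every 120 mM reading lay below every 0 mM reading. In O. latifolia the matching arrays read 5.00 and 5.39 at 120 mM, against 4.18, 6.71 and 5.47 at 0 mM, all not well above background.

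Over the 38 arrays all 4 probes of Os03g0266900 rose in PSBRc50 (4.09 to 4.28, adjusted p = 0.00285 to 0.00542; 4.66% of all probes passed in PSBRc50) and fell in Banikat (−3.71 to −3.58, adjusted p = 0.00895 to 0.0158) and in Nipponbare (−4.90 to −4.64, adjusted p = 0.00270 to 0.0107). M80186 also rose in BRRI dhan 29, by 3.67 (SE 0.84, adjusted p = 0.0263), where 1.28% of all probes passed. These calls leaned on few arrays. No probe of the locus passed in PSBRc50 without 120 mM replicate 2 (D12635 then 3.24, adjusted p = 0.119), nor in BRRI dhan 29 without any 1 of its 4 arrays, nor in Banikat without 0 mM replicate 2 or either 120 mM array (D12635 then −3.87 to −3.12, adjusted p = 0.0940 to 0.286). In Nipponbare the 4 probes passed without 120 mM replicate 1, none without 120 mM replicate 2, and M80186 alone without either 0 mM array. D12635 had, over all 46 arrays, effects of 3.66 in PSBRc50, −1.25 in Banikat and −2.60 in Nipponbare (SE 1.22 each), none passing. Over the 38 arrays its salt effect differed between genotypes with an adjusted p of 6.75e-05. In IR58 the effect was 3.64 (SE 1.09, adjusted p = 0.146), with 1 array at 0 mM behind it. The lower signal of O. latifolia at these probes cannot be told apart from weaker hybridization of this wild species, since the probes were designed on cultivated rice.

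Os01g0136100 had the lowest adjusted p for the difference of the salt effect between genotypes among the 7 representative probes (1.27e-05 over the 38 arrays). Its probe X60820 was well above background on all arrays. In O. rufipogon it read 7.55, 8.97 and 8.74 at 120 mM, against 5.45, 5.10 and 5.76 at 0 mM. In Pokkali it read 10.98, 9.91 and 8.80 at 120 mM, against 7.10, 7.13 and 7.12 at 0 mM. Arrays labelled Nipponbare read 6.82 and 6.49 at 120 mM, against 13.50 and 10.66 at 0 mM. No reading of one salt level fell among those of the other in these 3 genotypes. Arrays labelled Banikat read 6.90 and 6.26 at 120 mM, against 8.26 and 10.91 at 0 mM. In O. latifolia the readings were 10.66 and 9.95 at 120 mM, against 7.69, 7.87 and 8.46 at 0 mM. In PSBRc50 they were 8.18 and 8.49 at 120 mM, against 6.03, 6.00 and 6.78 at 0 mM. These groups did not overlap either. IR58 read 8.86, 7.71 and 8.25 at 120 mM, against 4.99 at 0 mM, and BRRI dhan 29 read 8.28 and 6.47 at 120 mM, against 5.61 and 6.93 at 0 mM, the only genotype whose groups overlapped. The probe rose in O. rufipogon by 2.98 (SE 0.67, adjusted p = 0.0152; 2.23% of all probes passed there) and fell by 3.01 in Banikat (SE 0.82, adjusted p = 0.0229) and by 5.43 in Nipponbare (SE 0.82, adjusted p = 0.000467). The Nipponbare call was kept without any 1 of its 4 arrays (adjusted p = 0.000124 to 0.0487), whereas the O. rufipogon call was lost without replicate 1 or 2 at 0 mM or replicate 2 at 120 mM (adjusted p up to 0.0623) and the Banikat call without 0 mM replicate 2 or either 120 mM array (adjusted p up to 0.582). Over all 46 arrays the effects were −1.21 in Banikat and −2.53 in Nipponbare (SE 1.14 each), neither passing. In Pokkali the effect was 2.78 (SE 0.67, adjusted p = 0.0873) and in O. latifolia 2.30 (SE 0.75, adjusted p = 0.0960).

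Its neighbour Os01g0136200, the annotated 17.7 kDa protein, had low signals, and its probe AK121025 cleared the background at 120 mM on 17 of 23 arrays and at 0 mM on 12 of 23. Arrays labelled Nipponbare read 4.82 and 3.26 at 120 mM, against 10.94 and 8.35 at 0 mM, and fell by 5.60 at 120 mM (SE 0.78, adjusted p = 0.000190, and 8.2e-05 to 0.0246 without any 1 of the 4 arrays). The effect there was −2.36 (SE 1.19) over all 46 arrays and did not pass. In O. rufipogon it read 5.57, 6.11 and 4.57 at 120 mM, against 3.77, 2.53 and 2.08 at 0 mM. None of the O. rufipogon arrays at 0 mM was well above background, so the level at 120 mM is given as at least 5.60-fold higher (fitted adjusted p = 0.0275); such a bound sets the mean at 120 mM against the lowest signal among probes well above background on each dim array, or the probe's own where that is higher. The fitted call was lost without replicate 2 or 3 at 0 mM or replicate 1 or 2 at 120 mM (adjusted p up to 0.1001). In Pokkali the probe read 8.20, 7.80 and 6.54 at 120 mM, against 5.26, 4.79 and 4.69 at 0 mM (effect 2.60, adjusted p = 0.107). In Banikat the arrays read 8.07 and 7.67 at 120 mM, against 7.60 and 9.68 at 0 mM, and in BRRI dhan 29 they read 4.60 and 3.09 at 120 mM, against 3.77 and 4.05 at 0 mM. The groups of both overlapped. The effect in Banikat was −0.77, and none is given for BRRI dhan 29, where no matching array at 0 mM and 1 of 2 at 120 mM was well above background. The difference between genotypes had an adjusted p of 8.08e-05.

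Os01g0136000, the remaining locus of the chromosome 1 group, was measured by CI053053, whose signal stood well above background at 120 mM on 18 of 23 arrays and at 0 mM on 14 of 23. Over the matching arrays it lay between 2.30 and 5.47 at 120 mM in Banikat and Nipponbare (median 3.98), against 3.40 to 8.69 at 0 mM (median 8.01). In Pokkali, PSBRc50, IR58 and BRRI dhan 29 together it lay between 5.19 and 8.08 at 120 mM (median 6.21), against 3.57 to 6.33 at 0 mM (median 5.25). Those ranges pool genotypes and overlapped in each set, while within genotypes the groups did not overlap in Pokkali, BRRI dhan 29, Banikat and Nipponbare. In O. rufipogon CI053053 lay between 4.54 and 5.72 at 120 mM, against 1.43 to 3.78 at 0 mM, also without overlap, and in O. latifolia no matching array was well above background. The probe passed no test of salt in any genotype, and the difference between genotypes had an adjusted p of 0.0748.

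Os03g0267000 had the widest range of group means over genotypes among the 7 representative probes at 120 mM. Its probe X75616 stood well above background at 120 mM on 20 of 23 arrays and at 0 mM on 16 of 23. It read 12.65 and 12.39 at 120 mM in O. latifolia, against 9.48, 9.43 and 9.98 at 0 mM. In IR58 it read 9.16, 10.65 and 9.38 at 120 mM, against 6.75 at 0 mM. In Pokkali it read 4.05, 4.17 and 5.76 at 120 mM, against 3.18, 2.78 and 1.34 at 0 mM. Salt arrays were above the others in all 3, at levels far apart. PSBRc50 read 5.16 and 5.12 at 120 mM, against 3.40, 1.33 and 1.35 at 0 mM. BRRI dhan 29 read 5.20 and 4.59 at 120 mM, against 2.42 and 1.66 at 0 mM, neither of the last well above background. By group means the level at 120 mM was at least 4.77-fold higher there over the matching arrays. The fitted effect did not pass (adjusted p = 0.209). O. rufipogon read 7.03, 9.64 and 3.94 at 120 mM, against 7.40, 5.91 and 6.87 at 0 mM. At 0 mM 1 of 3 arrays was well above background in Pokkali and likewise in PSBRc50. The groups stayed apart in PSBRc50 and BRRI dhan 29, and in O. rufipogon the salt arrays lay on both sides. Arrays labelled Banikat read 7.36 and 6.59 at 120 mM, against 9.73 and 11.03 at 0 mM, and the probe fell there by 3.41 (SE 1.06, adjusted p = 0.0479), a call lost without 0 mM replicate 2 or either 120 mM array (adjusted p up to 0.480). Arrays labelled Nipponbare read 2.55 and 2.48 at 120 mM, neither well above background, against 5.39 and 4.86 at 0 mM. By group means the level at 120 mM was at least 5.16-fold lower there, and the fitted effect did not pass (adjusted p = 0.306). At 120 mM the group means (± SD) ran from 12.52 ± 0.18 in O. latifolia and 9.73 ± 0.81 in IR58 down to 2.51 ± 0.05 in Nipponbare. Between them, Banikat (6.98 ± 0.55) and O. rufipogon (6.87 ± 2.85) did not differ from each other beyond their spread, nor did PSBRc50 (5.14 ± 0.03), BRRI dhan 29 (4.89 ± 0.43) and Pokkali (4.66 ± 0.95). The difference of the salt effect between genotypes had an adjusted p of 0.00372.

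Os03g0267200 did not follow the other loci. Its probe AK069547 read 12.27, 12.41 and 12.08 at 120 mM in Pokkali, against 12.22, 11.95 and 11.76 at 0 mM. In BRRI dhan 29 it read 11.68 and 11.71 at 120 mM, against 11.79 and 11.42 at 0 mM. Arrays labelled Nipponbare read 12.18 and 11.36 at 120 mM, against 12.58 and 12.62 at 0 mM. The groups overlapped in Pokkali and BRRI dhan 29 and lay close to each other in Nipponbare. Across the genotypes other than O. latifolia the salt effect over the 38 arrays lay between −0.84 (SE 0.42) in Nipponbare and 0.42 (SE 0.42) in Banikat. In O. latifolia the probe read 5.94 and 7.18 at 120 mM, neither well above background, against 7.04, 8.25 and 7.99 at 0 mM. The mean of these dim signals at 120 mM was 2.30-fold lower (fitted adjusted p = 0.0914), and the groups overlapped. No salt test passed, and the difference of the salt effect between genotypes had an adjusted p of 0.269. The level itself differed between genotypes (adjusted p = 0.000905 at 120 mM and 4.14e-05 at 0 mM with all arrays), O. latifolia being lowest at 6.56 ± 0.87 at 120 mM and 7.76 ± 0.64 at 0 mM, where the other genotypes lay between 11.13 and 12.25 at 120 mM and between 10.71 and 12.60 at 0 mM. Without O. latifolia the probe no longer passed the test between genotypes at 120 mM. The low signal of O. latifolia here, too, cannot be told apart from weaker hybridization of this wild species. The array that was labelled O. latifolia at 120 mM and resembled PSBRc50 read 11.30.

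**Figure D3:**
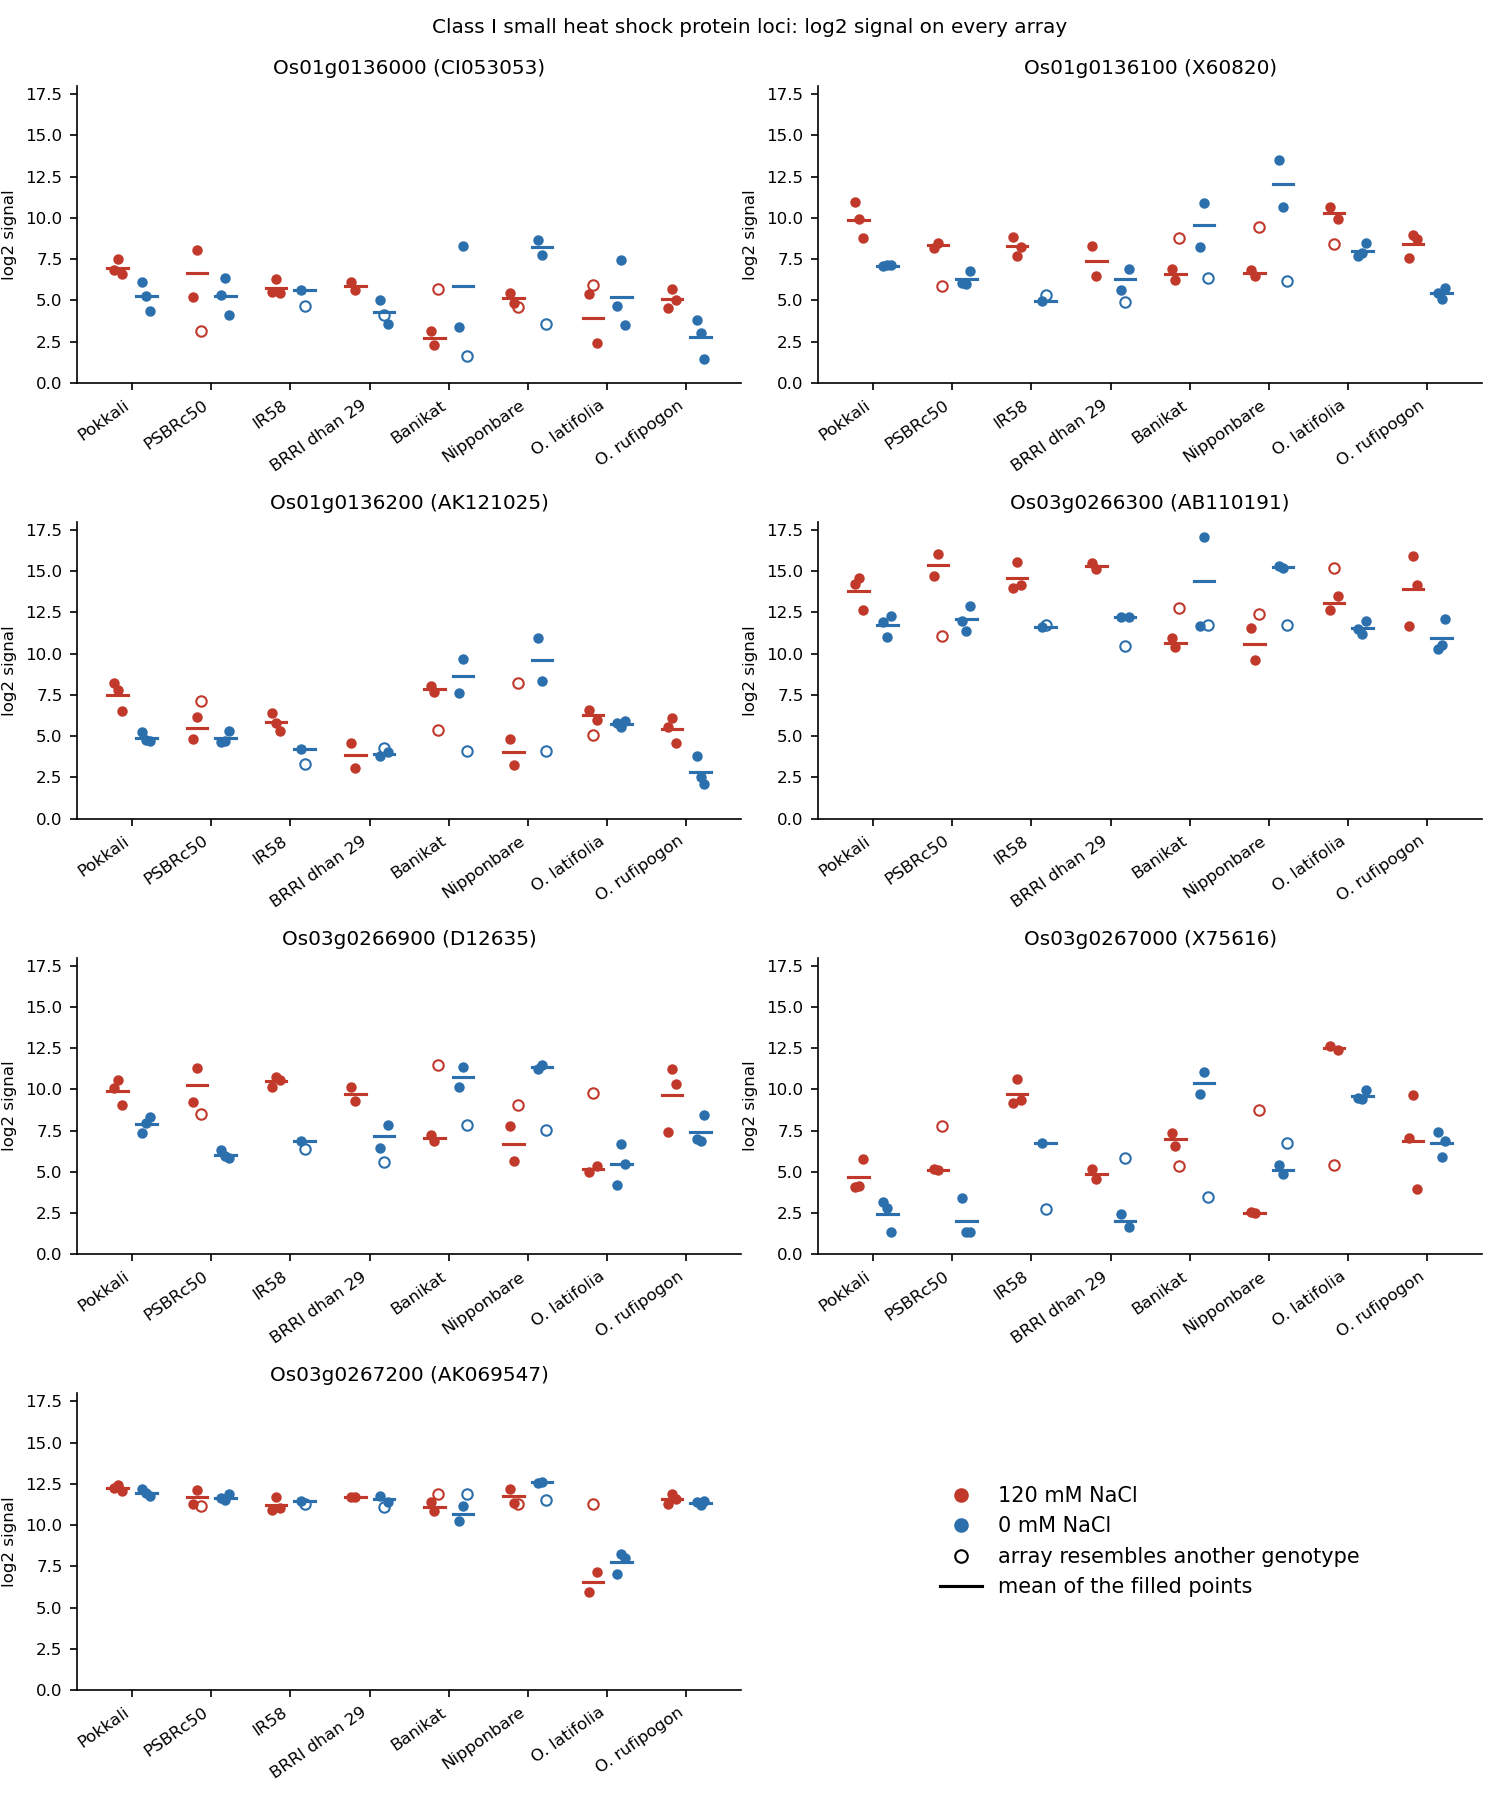
Log2 signal of the representative probe of each of the 7 loci (1 panel each, y axis) on every array, by genotype (x axis) and NaCl level, with 120 mM left of 0 mM; filled points are the 38 arrays that matched their label, open points the 8 that resembled another genotype, and lines the means of the filled points. The Banikat and Nipponbare lines lie lower at 120 mM than at 0 mM in all panels but that of Os03g0267200, where the Banikat mean is higher by 0.42.

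Counted over probes and genotypes, 0 of 144 pairs passed a test of salt within a genotype with all 46 arrays (0.515% of all pairs on the array passed; 56 member pairs and 27685 of all pairs had an unadjusted p under 0.05). Over the 38 arrays 19 of 144 passed, against 2.7% of all pairs. These were 4 higher in PSBRc50 (all Os03g0266900), 1 higher in BRRI dhan 29 (M80186), 2 higher in O. rufipogon (X60820 and AK121025), 6 lower in Banikat (the 4 of Os03g0266900, X60820 and X75616; 8.02% of all probes passed in Banikat) and 6 lower in Nipponbare (the 4 of Os03g0266900, X60820 and AK121025; 1.07% passed). Pokkali and O. latifolia had none, where 108 and 1478 of all probes passed, with 9 and 3 of 18 probes at an unadjusted p under 0.05. The share of all probes at that unadjusted p was not counted by genotype, so these 2 counts have no reference. Over the 8 genotypes together 97 of 144 member pairs and 46096 of 339565 pairs on the array had such a p. Probes of 1 locus share a target, so the pairs are not independent. By representative probe the calls were D12635 in PSBRc50, Banikat and Nipponbare, and X60820 in O. rufipogon, Banikat and Nipponbare. The others were AK121025 in O. rufipogon and Nipponbare, and X75616 in Banikat.

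The Banikat count rested on single arrays. It was 0 without 0 mM replicate 2, 120 mM replicate 1 or 120 mM replicate 2, and 16 without 0 mM replicate 1, the median over the 18 probes being −1.10 without 0 mM replicate 2 and −5.96 without 0 mM replicate 1. In O. rufipogon it was 13 without 120 mM replicate 1, 0 without 120 mM replicate 2 or 0 mM replicate 2, and 1 without 0 mM replicate 1. In Nipponbare it was 2 without 120 mM replicate 2, 3 without either 0 mM array and 6 without 120 mM replicate 1. Leaving out 1 array at a time gave 13 to 48 calls in all, and the share of all pairs was not counted in those fits. The probes whose salt and unsalted arrays did not overlap numbered 16 in Pokkali, 15 in PSBRc50, 16 in IR58, 14 in BRRI dhan 29, 16 in Banikat, 18 in Nipponbare, 11 in O. latifolia and 3 in O. rufipogon, beside the 2.7% of all pairs called. With so few arrays such separation was common over the array, at 13.1% of all probes in Pokkali, 39.8% in PSBRc50, 60.3% in IR58, 43.1% in BRRI dhan 29, 53.5% in Banikat, 52.6% in Nipponbare, 26.1% in O. latifolia and 17.0% in O. rufipogon. With all 46 arrays the counts were 16, 5, 16, 13, 1, 0, 8 and 3 of 18 in the same order of genotypes, beside 10.2% of all probes in Banikat to 38.2% in IR58.

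Whether the salt effect differed between genotypes was tested directly. With all 46 arrays 0 of 18 probes passed this limma F test, with 14 members and 4791 of all probes at an unadjusted p under 0.05, and 0.6% of all probes passed. Over the 38 arrays 14 of 18 passed, against 13.6% of all probes. Leaving out any further array gave 14 to 17, with the share of all probes not counted. The 4 that did not pass were CI053053, AK119675, D21285 and AK069547. The level differed between genotypes at 120 mM for 4 of 18 probes with all arrays (40.3% of all probes) and for 17 over the 38 arrays (68.6%). At 0 mM the counts were 8 (61.9% of all probes) and 16 (74.4%).

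Arrays of 1 genotype at both salt levels usually lay on the same slide, which allowed the salt effect to be read within slides. There were 22 such pairs, of which 17 joined arrays that matched their label, 13 in the 6 genotypes other than Banikat and Nipponbare and 4 in these cultivars. AB110191 was higher at 120 mM in 13 of 13 pairs of the 6 genotypes and lower in 4 of 4 pairs of Banikat and Nipponbare. D12635 and X60820 were each higher in 12 of 13 and lower in 4 of 4. X75616 was higher in 11 of 13 and lower in 4 of 4, AK121025 in 12 of 13 and 3 of 4, and CI053053 in 10 of 13 and 4 of 4. AK069547 was higher in 7 of 13 and lower in 3 of 4. The pairs are made of the same arrays as the group means, so these counts show the effect by slide and are no separate evidence of its direction. Among all 22 pairs, AB110191 and D12635 were each higher in 17. The 4 matching pairs of Banikat and Nipponbare lay on slides that held both cultivars and no other genotype, and are not 4 separate slides. A difference in level between slides cancels within a pair. A difference of the salt effect between these cultivars and the other 6 genotypes cannot be told apart from a salt effect that varies by slide. A slide block takes out the difference in level but does not separate these 2. With the slide as a block and the 8 arrays left out, 14 probes again passed the difference between genotypes, against 13.5% of all probes. Within genotypes 17 pairs passed, and the share of all pairs was not counted in that fit.

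**Figure D4:**
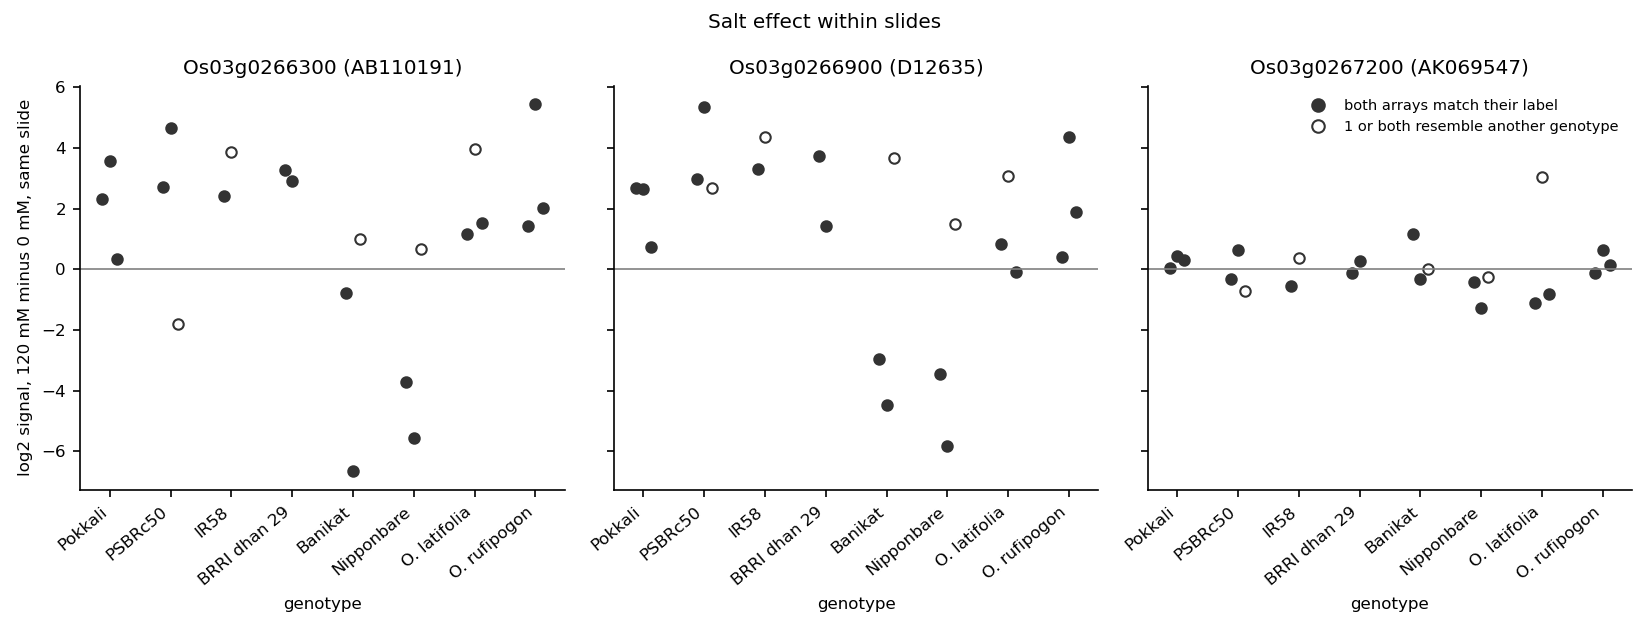
Difference in log2 signal between the 120 mM and the 0 mM array of 1 slide (y axis) by genotype (x axis) for the representative probes of Os03g0266300, Os03g0266900 and Os03g0267200; filled points are pairs in which both arrays matched their label, open points pairs with an array that did not. For Os03g0266300 all filled points lie above 0 in 6 genotypes and below 0 in Banikat and Nipponbare, and for Os03g0267200 they scatter around 0.

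The loci did not vary as a single unit across arrays. As a description over the 46 arrays, which share genotypes and slides, Pearson's r was 0.77 between X60820 and AK121025, 0.75 between AB110191 and D12635 and 0.66 between X60820 and AB110191. AK069547 went with D12635 (r = 0.55) and against X75616 (r = −0.65). In O. latifolia AK069547 was at its lowest group mean and X75616 at its highest at 120 mM.

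The 5 loci outside the family whose pattern was most like the mean of the 7 centred profiles were sought among 32927 probes, over 46 arrays. They were Os01g0783200 (r = 0.89), Os09g0109600 (0.89), a conserved hypothetical protein, Os03g0390200 (0.88), annotated as a protein kinase, Os01g0702500 (0.88), the dehydrin RAB25, and Os02g0622500 (0.87), with an RNA recognition motif. Dehydrins of the RAB group are hydrophilic proteins known in rice to accumulate under abscisic acid, drought and salt. Since these loci were picked for their likeness, their salt effects are a description. Over the 38 arrays Os01g0702500 had effects of 5.82 in BRRI dhan 29, 5.71 in IR58, 3.85 in PSBRc50, 3.19 in Pokkali, 3.04 in O. rufipogon and 2.51 in O. latifolia, and of −6.55 in Banikat and −5.51 in Nipponbare (−2.10 and −2.23 with all 46 arrays).

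Other parts of the heat shock system were given by lists of loci chosen by family name. Of 5 other small heat shock proteins, 0 passed the mean salt effect with all arrays and 1 over the 38, Os01g0184100, the class II protein annotated with 17.5 kDa (1.46, adjusted p = 0.0117). That locus had effects of 3.82 in Pokkali and 2.91 in PSBRc50, which passed, and of −5.22 in Nipponbare, which also passed. These were 3.82, 3.51 and −0.87 with all 46 arrays, and none passed. Of 18 heat shock factors, the transcription factors that switch on chaperone genes, 0 passed the mean salt effect in either direction with either set of arrays (median 0.34 with all arrays), and 10 were lower in both Banikat and Nipponbare, a pattern of 35.9% of all probes. In the difference between genotypes 4 of the 18 passed over the 38 arrays, against 13.6% of all probes, among them Os08g0546800, annotated as RHSF2 (adjusted p = 0.000100), with 4.50 in PSBRc50, −4.99 in Banikat and −5.29 in Nipponbare (1.81, −1.56 and −2.12 with all 46 arrays, none passing).

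The ATP-driven chaperones included the locus with the most calls in these lists. Of 4 HSP70 loci 1 passed the mean salt effect with all arrays, Os03g0218500 (1.32, SE 0.33, adjusted p = 0.0324), and 2 over the 38 arrays, that locus (1.06, adjusted p = 0.00815) and Os03g0277300 (1.57, adjusted p = 0.00451). Os03g0277300 rose in PSBRc50 (5.29), IR58 (6.23), BRRI dhan 29 (5.19), Pokkali (4.31) and O. rufipogon (4.43), fell in Banikat (−6.14) and Nipponbare (−5.76), and had a value of −0.97 in O. latifolia, which did not pass. With all 46 arrays it passed in no genotype, with −2.48 in Banikat and −1.89 in Nipponbare. Os05g0303000, the chloroplast HSP70, and Os03g0710500, a luminal binding protein of the endoplasmic reticulum, passed in no genotype. Of 2 HSP90 loci, Os09g0482600 rose in O. rufipogon (4.36) and fell in Banikat (−6.49), while Os08g0500700 passed in none. The single HSP100 locus, Os05g0519700, fell in Banikat (−5.65). No list had a locus called lower in the mean over genotypes.

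**Figure D5:**
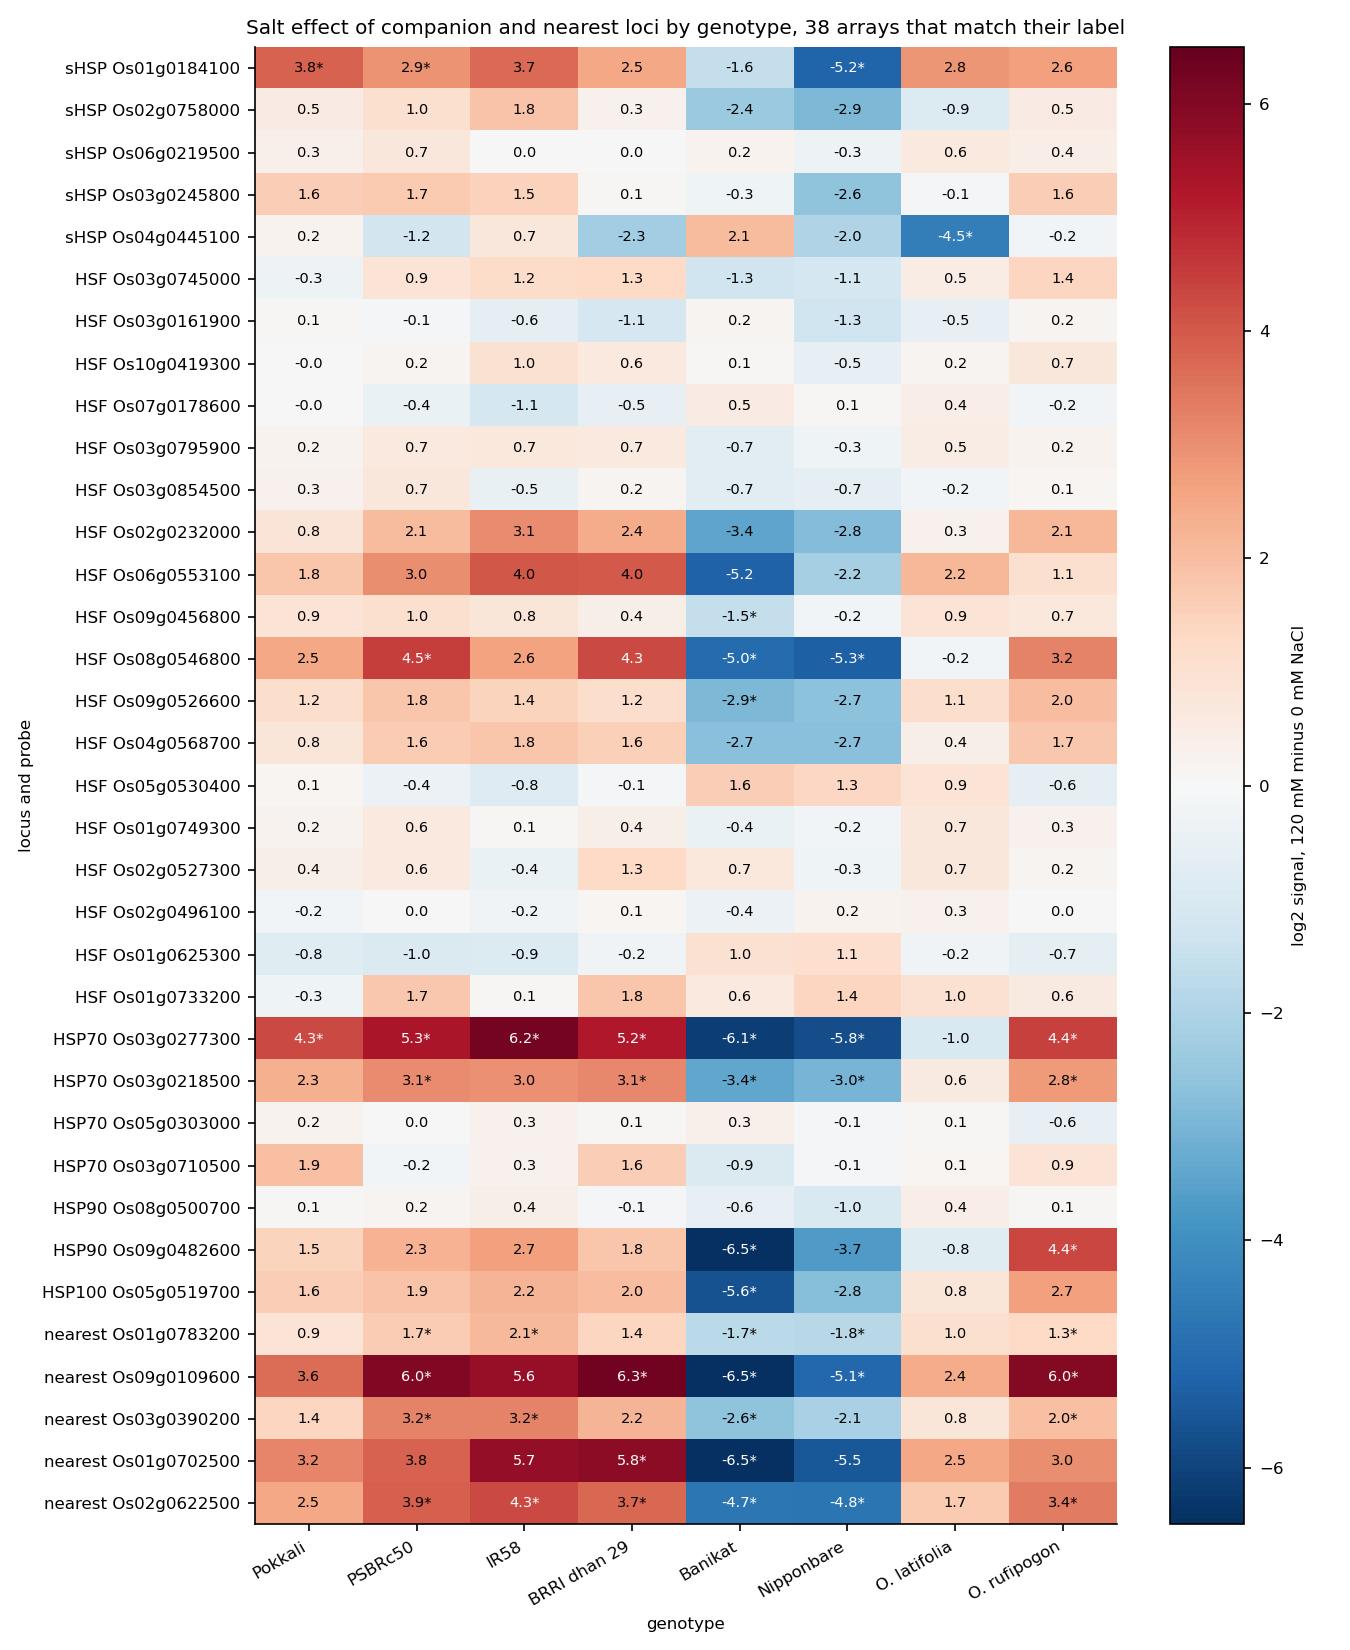
Heat map of the salt effect (log2 signal at 120 mM minus 0 mM NaCl) of 30 companion loci and the 5 nearest loci, in rows, in the 8 genotypes, in columns, over the 38 arrays that matched their label; * marks an adjusted p of at most 0.05. Os03g0277300 is marked in all columns but O. latifolia, where its value is −0.97.

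Because each RNA held root and shoot, markers of both were read on the same arrays. Of 3 leaf markers (the small subunit of rubisco and 2 chlorophyll-binding proteins) and 3 root markers (RCc3, Lsi1 and NRT2.1), 0 passed any test of salt or of its difference between genotypes. Their mean log2 signal per matching array lay between 17.2 and 18.3 at 120 mM and between 16.6 and 18.2 at 0 mM for leaf, and between 8.79 and 11.5 at 120 mM and between 8.25 and 12.2 at 0 mM for root. NRT2.1 cleared the background at 120 mM on 3 of 23 arrays and at 0 mM on 9 of 23. Within genotypes, the mean log2 signal of the leaf markers was 18.14 at 120 mM and 17.24 at 0 mM in Banikat, and 17.85 at 120 mM and 17.29 at 0 mM in Nipponbare, with no overlap of arrays in either. The mean of the root markers was 9.88 at 120 mM and 8.85 at 0 mM in Banikat, without overlap, and 9.91 at 120 mM and 10.14 at 0 mM in Nipponbare. It was 10.02 at 120 mM and 11.45 at 0 mM in Pokkali, with overlap. Without overlap it was 10.76 and 11.88 in IR58 (1 array at 0 mM), 10.66 and 11.91 in BRRI dhan 29, and 9.83 and 10.29 in O. rufipogon. Leaf markers did not overlap in IR58 (17.56 and 17.39) and O. rufipogon (17.66 and 17.92) either. Single probes separated in this way at 53.5% of all probes in Banikat, 52.6% in Nipponbare, 60.3% in IR58, 43.1% in BRRI dhan 29 and 17.0% in O. rufipogon. The part of tissue proportions in the results above was not tested.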

How the data were processed

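The authors scanned each array with Agilent Feature Extraction 10.7.3.1 and deposited its spot signal intensity, from which the software had subtracted background but which was not scaled to other arrays. For 42475 probes the authors deposited log2 values as well, quantile-normalized by the methods (column medians −0.17 to 0.51); these served as an alternative. Here the log2 processed signal was quantile-normalized over 43734 of 45151 spots, controls left out. Spots flagged as outliers (19 to 563 per array, 0.0562% of values) were dropped and spots of 1 probe averaged. Well above background means so flagged on a share of 0.5 or more of the spots of a probe. Differences were tested with limma 3.58.1 in R 4.3.3 (lmFit and eBayes, 16 group means, 1 shared spread, Benjamini-Hochberg over all probes, adjusted p at most 0.05), and the steps were tested on simulated data. The simulation drew independent noise, held each probe's spread to at most the median over probes and had no array of another genotype. It therefore checks the code and not the power for probes with a wider spread. The number of arrays limits the precision.

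All 18 member probes were reported. The probe with the highest mean signal stood for its locus, and the 5 other loci with the highest correlation were added. The members and lists were chosen with earlier results of these data known. The scanner files give no gene descriptions, so companion loci were listed by hand. The SAM method with trait values was not used here. Alternatives were other scaling, background correction, a filter on dim probes, blocks for replicate, slide and scan day, and arrays left out. Nothing says that replicates were grown apart, so p-values measure the spread between these seedlings.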

Additional observations from a re-analysis of the deposited data

Results flagged for a closer look

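Over the 38 arrays that matched their label, the salt effect of 5 of the 7 loci differed between genotypes by the limma F test. The adjusted p-values were 1.27e-05 for Os01g0136100 (X60820), 8.08e-05 for Os01g0136200 (AK121025), 0.00189 for Os03g0266300 (AB110191), 6.75e-05 for Os03g0266900 (D12635) and 0.00372 for Os03g0267000 (X75616). At each of these probes the effect was below 0 in Banikat and Nipponbare, with X75616 in Nipponbare known only as a bound. The effect was above 0 in the other 6 genotypes for X60820 and AB110191. For X75616 it was above 0 in Pokkali, PSBRc50, IR58 and O. latifolia and near 0 in O. rufipogon (0.14, SE 0.87). X75616 in BRRI dhan 29 and AK121025 in O. rufipogon were not well above background on any matching array at 0 mM and give only bounds. D12635 in O. latifolia and AK121025 in O. latifolia and BRRI dhan 29 were likewise dim at 0 mM and give no effect there. None of the 5 passed with all 46 arrays.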

How the results depend on the processing

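The count of member probes passing the mean salt effect (1 of 18) was 5 with 75th percentile scaling, 2 with normexp background correction, 3 with the filter on dim probes, 3 with a scan day block, 0 with a slide block, 0 without both wild species, 0 without O. latifolia, 0 without the 8 arrays that stood apart, alone or with a slide block, 0 without any 1 replicate number and 0 to 11 without single arrays. The 0 calls within genotypes became 19 without the 8 arrays, 20 with 75th percentile scaling in addition, 17 with a slide block in addition, 0 to 2 without 1 replicate number and 0 to 1 without single arrays, while single arrays left out beside the 8 gave 13 to 48. The 0 calls of the difference between genotypes became 14 in each of these 3 settings, where 13.6%, 12.6% and 13.5% of all probes passed. They became 0 to 13 without 1 replicate number (0.171% to 8.87% of all probes) and 0 to 4 without single arrays. Single arrays left out beside the 8 gave 14 to 17. At 120 mM the 4 genotype calls became 9 with 75th percentile scaling, 0 without both wild species or without O. latifolia, 17 without the 8 arrays, 16 with that scaling in addition, and 0 to 10 without 1 replicate number. At 0 mM the 8 calls became 2 without both wild species, 3 without O. latifolia, 16 without the 8 arrays, 17 with that scaling in addition, and 1 to 10 without 1 replicate number. The cause of these moves was not tested.

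Of 270 values of the mean salt effect of single probes, 242 kept their direction and call, 9 lost the call, 11 gained it and 8 turned direction. The last were CI053053, at −0.064 to 0.70 without 1 replicate number (lowest without 3), −0.041 without the 8 arrays and −0.019 with a slide block in addition, and AK069547, at −0.18 to 0.18 without 1 replicate number (lowest without 2), −0.023 without both wild species, −0.16 without the 8 arrays, and −0.17 with 75th percentile scaling or with a slide block in addition. Over all probes the calls of the mean salt effect (824) were 1377 with normexp, 1448 with a scan day block, 0, 63 and 700 without replicates 1, 2 and 3, 2 without both wild species and 218 without O. latifolia, and those of the difference between genotypes (255) were 54 with 75th percentile scaling, 410 with normexp, 417 with a scan day block, 72 without replicate 1, 3768 without replicate 3 and 5733 without the 8 arrays. The 75th percentile scaling moved the median of all probes to 0.11. With that scaling 1189 of all probes passed the mean salt effect, and 954 did with the filter on dim probes.

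Same-numbered arrays did not pair by their deviations (r over 0.1 in 8 of 22 pairs, −0.034 to 0.46), and with a replicate block 2 probes passed the mean salt effect. Genotype tests at 1 salt level could not be fitted with slide or scan day as a block, and IR58 at 0 mM could not lose its last matching array. The setting without O. latifolia, the scaling and slide block combined with leaving out the 8 arrays, and the fits without single arrays were chosen after seeing the data.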
